A study of Arabidopsis thaliana with 9 samples.

Results

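HSP15.7, HSP17.6C and ROF2 are heat shock genes of Arabidopsis thaliana, and they were followed here in detached leaves kept in the dark with the fungal alkaloid BrvC, a brevicompanine. The members were chosen by symbol, and all 3 were found, each as a probe set that the array annotation pairs with no other gene, among 16550 genes tested. HSP15.7 was taken as locus AT5G37670, HSP17.6C as AT1G53540 and ROF2 as AT5G48570. The reference gene table gives ROF2 as a synonym, while it gives the loci of HSP15.7 and HSP17.6C without a symbol, so that these names rest on general knowledge of the loci. The same holds for 26 of the 37 measured genes of the heat shock and chaperone lists used below, ROF2 being one of the other 11.

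The study measured 9 samples on 1 Affymetrix array each, in 3 groups of 3 that its labels call biological replicates. All leaves came from Col-0 plants aged 30 days and were cut, pooled by 10 to 15 per sample and immersed in MS medium. The plants had grown in soil for 4 weeks under a cycle of 16 h light and 8 h dark, at 21 and 19 °C. The groups were leaves with 50 µM BrvC for 48 h in the dark, leaves with 50 µM BrvC for 6 h in the dark, and control leaves with 0.05% DMSO, for which the labels give no time in the dark. Whether the BrvC medium also held DMSO is not stated. BrvC and the length of the dark incubation therefore cannot be told apart in either comparison with control, and the comparison of the 2 times holds both as well. The array value is a log2 signal, so a difference of 1 is a doubling.

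Small heat shock proteins bind unfolding proteins before they aggregate and hold them for refolding by ATP-driven chaperones such as HSP70. They are built around an alpha-crystallin domain, and many are made in quantity only when heat shock factors bind the promoters of their genes. HSP15.7 is a small heat shock protein of the peroxisome matrix, and HSP17.6C belongs to the class I proteins of the cytosol. ROF2, also named FKBP65, is an immunophilin of the peptidyl-prolyl isomerase type. It has been linked to the control of small heat shock protein genes through the heat shock factor HSFA2.

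Array quality and tissue were checked over the whole series. Arrays of a group correlated at 0.978 to 0.993 over the genes tested and arrays of different groups at 0.936 to 0.977, and no pair was identical. Over all entries the array medians were 4.00 to 4.10 at 48 h, 4.17 to 4.25 at 6 h and at most 3.93 in control, without overlap between groups, while over the genes tested no array was above 3.87. Of 18 leaf markers 6 were measured, with array medians of 7.39 to 7.96 at 48 h, 7.78 to 8.21 at 6 h and 8.87 to 9.48 in control. Of 11 root markers only PYK10 was measured, between 3.10 and 4.23 over the arrays, and none of 14 seed markers was. The leaf markers moved with the groups: 6 of 6 fell at 48 h and 3 of 6 at 6 h against control, beside 5.22% and 13.2% of all genes. The part of the leaf markers in the results below was not tested.

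The 3 genes did not move as 1 group. At 6 h against control HSP17.6C rose and HSP15.7 and ROF2 fell, all 3 without overlap of the arrays. Of all 16550 genes, 27.4% passed the test in this comparison, 14.2% as rises and 13.2% as falls, and 40.3% had groups that did not overlap, 18.7% upward and 21.6% downward. At 48 h HSP15.7 and ROF2 fell without overlap, and HSP17.6C did not pass the test. In that comparison 10.6% of all genes passed, 5.43% as rises and 5.22% as falls, and 25.1% did not overlap, 11.6% upward and 13.5% downward. Both comparisons share their controls. At 48 h against 6 h HSP15.7 was higher and HSP17.6C and ROF2 were lower, all 3 without overlap. There 20.3% of all genes passed, 9.62% as higher and 10.7% as lower, and 37.3% did not overlap, with 19.2% of all genes upward.

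HSP15.7 fell at both times. Its log2 values were 2.58, 2.31 and 2.54 at 48 h, 1.97, 1.68 and 1.66 at 6 h, and 4.28, 4.33 and 4.66 in control. Every treated array lay below every control array, and every 6 h array lay below every 48 h array. The lowest percentile of HSP15.7 among all entries of its array was 8.7 at 6 h, 23.2 at 48 h and 55.3 in control. RMA compresses differences of small signals, and its effect on the fold sizes below and on the step between the times was not tested. At 6 h the mean was 1.77 ± 0.18 against 4.42 ± 0.21 in control (SD, n = 3 each), a log2 fold change of -2.66 (SE 0.18, limma adjusted p = 2.65e-07), or 6.30-fold lower. At 48 h the mean was 2.48 ± 0.14 (SD, n = 3) against the same controls, a log2 fold change of -1.95 (SE 0.18, limma adjusted p = 1.60e-05), or 3.86-fold lower. These were rank 101 among all falls at 6 h and rank 65 at 48 h. As in any bulk sample, fewer cells with the transcript and less transcript per cell cannot be told apart.

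HSP15.7 was higher at 48 h than at 6 h by 0.71 (SE 0.18, limma adjusted p = 0.0117). This smaller difference was lost without BrvC 6 h replicate 2 (0.66, adjusted p = 0.0536) or replicate 3 (0.65, adjusted p = 0.0513), and over all alternatives its adjusted p ran from 0.00246 to 0.071. The order of the levels was thus 6 h, 48 h and control from low to high, with the step between 6 h and 48 h the less secure. Neither fall against control lost its call in any alternative that kept the gene, the low-value filter having removed it.

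HSP17.6C was higher at 6 h than in both other groups. Its log2 values were 2.14, 2.22 and 2.70 at 48 h, 3.02, 3.01 and 4.26 at 6 h, and 2.15, 2.04 and 2.79 in control. The 6 h arrays lay above all others, while the 48 h and control arrays overlapped. Among all entries of its array HSP17.6C was at percentiles 21.1 to 31.1 at 48 h, 34.9 to 50.7 at 6 h and 15.6 to 34.6 in control. At 6 h the mean was 3.43 ± 0.72 against 2.33 ± 0.41 in control (SD, n = 3 each), a log2 fold change of 1.11 (SE 0.32, limma adjusted p = 0.0189), or 2.15-fold higher. At 48 h the mean was 2.36 ± 0.30 (SD, n = 3), and the difference from control was 0.03 with a 95% confidence interval of -0.66 to 0.72 (limma adjusted p = 0.968), whose sign turned in some alternatives. The 48 h leaves were lower than the 6 h leaves by a log2 fold change of -1.07 (SE 0.32, limma adjusted p = 0.0285).

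Replicate 3 held the highest HSP17.6C value in each of the 3 groups, 0.35 above the group mean at 48 h, 0.83 at 6 h and 0.47 in control. The rise at 6 h against control was 0.69 without BrvC 6 h replicate 3 (adjusted p = 0.0777), 1.02 when control replicate 1 was left out (0.0651) and 0.96 when control replicate 2 was (0.0725). The difference between 48 h and 6 h was -0.66 without BrvC 6 h replicate 3 (adjusted p = 0.116), -0.97 without 48 h replicate 1 (0.0954) and -1.01 without 48 h replicate 2 (0.092). Across the alternatives the rise had adjusted p-values from 6.62e-04 to 0.0777 and the difference between times had values from 0.00119 to 0.116. With replicate 3 left out of every group, an alternative chosen after the data were seen, the rise was 0.92 (SE 0.19, adjusted p = 0.00538).

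ROF2 fell at both times, and further at 48 h. Its log2 values were 3.49, 3.89 and 4.14 at 48 h, 4.95, 5.19 and 4.88 at 6 h, and 6.01, 5.42 and 5.92 in control. The 3 groups did not overlap, with 48 h lowest and control highest. At 48 h the mean was 3.84 ± 0.32 against 5.78 ± 0.32 in control (SD, n = 3 each), a log2 fold change of -1.95 (SE 0.21, limma adjusted p = 7.64e-05), or 3.85-fold lower and rank 67 among all falls. At 6 h the mean was 5.01 ± 0.17 (SD, n = 3), a log2 fold change of -0.78 against control (SE 0.21, limma adjusted p = 0.0148). The 48 h leaves were lower than the 6 h leaves by a log2 fold change of -1.17 (SE 0.21, limma adjusted p = 0.0015). The 6 h call was lost without BrvC 6 h replicate 1 (-0.75, adjusted p = 0.0543), without 6 h replicate 3 (-0.71, 0.0593) or when control replicate 1 was left out (-0.66, 0.0604), in a range of 9.37e-04 to 0.0907 over all alternatives. Neither the fall at 48 h nor the difference between the times lost its call in any alternative.

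**Figure D1:**
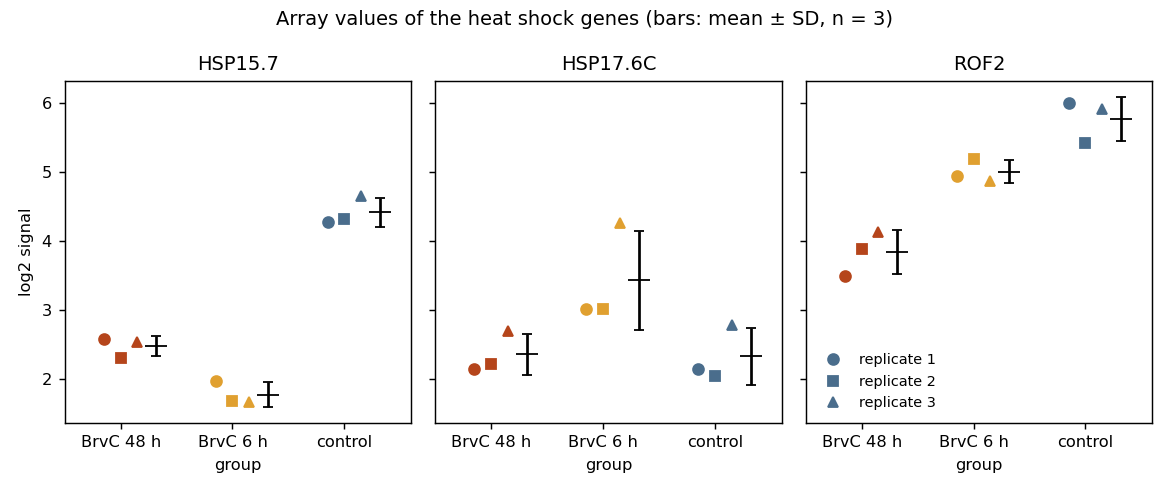
Log2 signal of HSP15.7, HSP17.6C and ROF2 on each array, with BrvC 48 h, BrvC 6 h and control from left to right; marker shape gives the replicate number and the black bars the mean ± SD (n = 3). HSP15.7 is lowest at 6 h (1.66 to 1.97), HSP17.6C is highest at 6 h (3.01 to 4.26) with replicate 3 on top in every group, and ROF2 is lowest at 48 h (3.49 to 4.14).

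**Figure D2:**
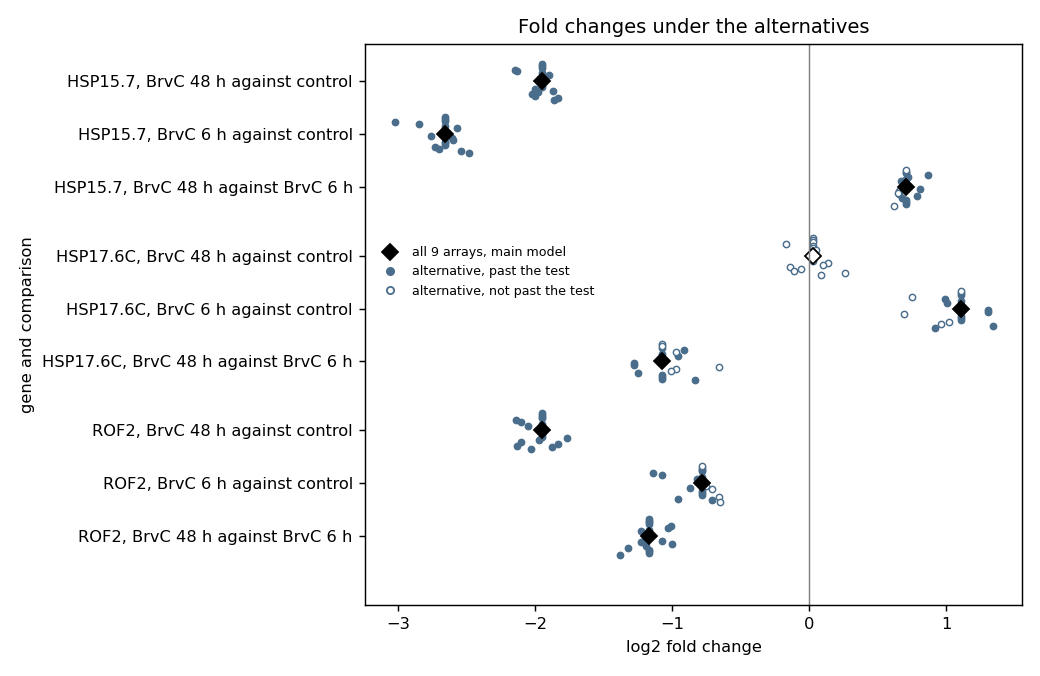
Log2 fold change of each gene in each comparison with all 9 arrays (diamonds) and under each alternative (circles), filled where the adjusted p passed the threshold and open where it did not. HSP15.7 against control lay between -3.02 and -1.83 at all settings, while HSP17.6C at 6 h ran from 0.69 to 1.34 and lost its call in some.

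The remaining heat shock and chaperone genes were taken from 5 lists with 109 members, of which 37 were measured, the 3 genes above included. None of 21 heat shock factor genes was among them, so the regulators named above, HSFA2 included, were not analysed here. The list genes that no entry was paired with include HSP17.4, HSP18.2, HSP101 and HSP90.1. Most of the unpaired genes have their symbol in the reference gene table, while 26 of the 37 measured do not. The 37 are thus not an even sample of the lists. At 6 h against control 11 of the 37 rose, 10 fell and 16 did not pass the test (56.8% called, against 27.4% of all genes), with a median log2 fold change of 0.23 against -0.10 over all genes. At 48 h 1 rose, 7 fell and 29 did not pass (21.6% called, against 10.6%), with a median of -0.30 against -0.06. Between 48 h and 6 h 3 were higher and 12 lower (40.5% called, against 20.3%), with a median of -0.24 against 0.02, and without BrvC 6 h replicate 2 these counts were 1 and 8. These shares include HSP15.7, HSP17.6C and ROF2 themselves. With those 3 left out, 10 of the other 34 genes rose and 8 fell at 6 h against control. Of the same 34, 1 rose and 5 fell at 48 h, and 2 were higher and 10 lower between the times. The split of the 37 moved with the scaling of the arrays: after centring on array medians 4 rose and 14 fell at 6 h, 0 rose and 15 fell at 48 h, and 6 were higher and 8 lower between the times. Over all 16550 genes centring gave 1440 rises and 6868 falls at 6 h, and 510 and 1700 at 48 h. Between the times it gave 2445 higher and 1258 lower. After quantile normalization was run again 5 rose and 11 fell at 6 h, 0 rose and 12 fell at 48 h, and 5 were higher and 9 lower between the times. Over all genes it gave 1807 rises and 3488 falls at 6 h, and 645 and 1272 at 48 h. Between the times 1936 of all genes were then higher and 1534 lower.

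The 12 measured small heat shock proteins were split at 6 h, with 4 that rose, 4 that fell and 4 that did not pass. Of the 12, 66.7% were thus called, against 27.4% of all genes. At 48 h 2 fell, HSP15.7 and HSP18.5 (AT2G19310), and HSP21.7 (AT5G54660) rose. HSP18.5 had 8.02, 7.98 and 8.10 at 48 h, 6.20, 6.09 and 6.20 at 6 h, and 8.89, 9.05 and 9.31 in control. As for HSP15.7, its groups did not overlap and 6 h was lowest. It fell at both times, with a log2 fold change of -2.92 at 6 h (SE 0.16, limma adjusted p = 6.22e-08) and of -1.05 at 48 h (SE 0.16, adjusted p = 0.00114), and was higher at 48 h than at 6 h by 1.87 (SE 0.16, adjusted p = 3.74e-06).

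HSP17.6B (AT2G29500), a class I protein like HSP17.6C, had 3.54, 3.83 and 2.73 at 48 h, 4.78, 4.84 and 4.72 at 6 h, and 3.26, 4.29 and 3.45 in control. It rose at 6 h by 1.11 (SE 0.29, limma adjusted p = 0.0113) and was lower at 48 h than at 6 h by a log2 fold change of -1.41 (SE 0.29, adjusted p = 0.00353), while its difference from control at 48 h was -0.30 (adjusted p = 0.592). HSP15.4 (AT4G21870) differed by 0.75 at 6 h (adjusted p = 0.0132), by -0.56 at 48 h (adjusted p = 0.103, but -0.76 and 0.0343 after centring, and -0.74 and 0.0362 after the renewed normalization described next) and by -1.31 between 48 h and 6 h (adjusted p = 3.95e-04). HSP21.7 had a log2 fold change of 0.74 at 6 h (adjusted p = 0.00457) and 0.63 at 48 h (adjusted p = 0.0292). The class I genes are close copies, so that shared probes could mix their signals.

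These rises at 6 h depended on the scaling of the arrays. After quantile normalization was run again over all entries, HSP17.6B had 0.76 (limma adjusted p = 0.0809), HSP15.4 0.45 (0.118) and HSP21.7 0.41 (0.0724), and none was called. After centring on array medians the values were 0.76 (adjusted p = 0.0546), 0.39 (0.137) and 0.38 (0.0806), and HSP17.6C had 0.75 (0.0552). Centring lowered the median of all genes by 0.36 at 6 h. It subtracts 1 value from each array, so the distance of HSP17.6C above that median, 1.21, is the same by construction. The rise of HSP17.6B was also lost when control replicate 1 was left out (0.91, adjusted p = 0.0545), and HSP15.4 lost its call without BrvC 6 h replicate 2 (0.63, adjusted p = 0.0683). The rise of HSP21.7 at 48 h was lost without 48 h replicate 1 (0.59, adjusted p = 0.0981), 2 (0.63, 0.0781) or 3 (0.67, 0.0541), without control replicate 2 (0.52, 0.0962), after the renewed normalization (0.43, 0.114) and after centring (0.43, 0.116).

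Of 22 immunophilins 13 were measured, and ROF1 was not among them. Of the 13, ROF2 alone was called as lower than control at 6 h or at 48 h. This holds with the arrays scaled as deposited and all 9 in the fit. At 6 h 5 of the 13 rose and 7 did not pass (46.2% called, against 27.4% of all genes). At 48 h the 12 others did not pass (7.7% called, against 10.6%). FKBP43 (AT3G12340) had 3.83, 3.52 and 3.67 at 48 h, 4.43, 4.62 and 4.44 at 6 h, and 3.84, 3.24 and 3.64 in control, a rise of 0.92 at 6 h (SE 0.19, limma adjusted p = 0.00216). FKBP16-4 (AT3G10060), of the chloroplast, rose by 1.16 at 6 h (SE 0.24, adjusted p = 0.00285), and FKBP20-1 (AT3G55520) by 0.82 (SE 0.16, adjusted p = 0.00131). The chloroplast FKBP19 (AT5G13410) had 0.34 at 6 h (adjusted p = 0.19) and -0.60 at 48 h (adjusted p = 0.0508), and it was called as lower at 48 h without control replicate 3 (-0.75, adjusted p = 0.0167), after centring (-0.80, adjusted p = 0.0197) and after the renewed normalization (-0.68, adjusted p = 0.0325).

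Between 48 h and 6 h 8 of the 13 immunophilins were lower, ROF2 with them, and none was higher (61.5% called, against 20.3% of all genes). ROF2 had the largest of these differences. FKBP43 had -0.83 (SE 0.19, limma adjusted p = 0.00638) and FKBP19 -0.94 (SE 0.18, adjusted p = 0.00206). The calls of FKBP20-1 (-0.49) and FKBP16-4 (-0.88) in this comparison were lost after centring (-0.33, adjusted p = 0.218, and -0.71, 0.0587) and after the renewed normalization (-0.45, adjusted p = 0.0663, and -0.72, 0.0681). They were also lost without single arrays, with adjusted p of 0.0595 to 0.14 for FKBP20-1 without any 1 of the 6 arrays compared. For FKBP16-4 it was 0.0606 without BrvC 6 h replicate 2, 0.0791 without 6 h replicate 3, 0.0873 without 48 h replicate 1 and 0.0841 without 48 h replicate 3.

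Of 36 larger chaperones and their partners 9 were measured, which are 5 HSP70-type genes, 3 HOP co-chaperones and HSA32, while no HSP90 gene was analysed here. At 6 h 4 of the 9 fell and 1 rose (55.6% called, against 27.4% of all genes), and at 48 h 3 fell (33.3%, against 10.6%). HSP70-3 (AT3G09440), a cytosolic HSP70, had 8.32, 8.29 and 8.26 at 48 h, 7.62, 7.88 and 7.99 at 6 h, and 9.64, 9.76 and 9.66 in control. It fell, with a log2 fold change of -1.86 at 6 h (SE 0.16, limma adjusted p = 2.19e-06) and of -1.39 at 48 h (SE 0.16, adjusted p = 1.12e-04). Its relative HSP70-2 fell as well, with -2.13 at 6 h (SE 0.26, adjusted p = 3.39e-05) and -1.44 at 48 h (SE 0.26, adjusted p = 0.00251), and the 2 genes may share probes.

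HOP3, a co-chaperone that joins HSP70 to HSP90, had 3.36, 3.31 and 2.64 at 48 h, 3.58, 3.54 and 3.78 at 6 h, and 4.82, 5.06 and 4.43 in control. It fell at both times, by a log2 fold change of -1.14 at 6 h (SE 0.22, limma adjusted p = 0.0017) and of -1.67 at 48 h (SE 0.22, adjusted p = 3.30e-04). HOP2, of the same family, had -0.45 at 6 h (adjusted p = 0.104, but -0.64 and 0.0333 without BrvC 6 h replicate 3, and -0.81 and 0.00529 after centring) and 0.20 at 48 h (adjusted p = 0.576). HSA32, which prolongs acquired heat tolerance, fell at 6 h with -0.87 (SE 0.17, adjusted p = 0.00168). At 48 h it had -0.53 (adjusted p = 0.0687), and it was called there without control replicate 2 (-0.63, adjusted p = 0.046), after centring (-0.72, adjusted p = 0.0145) and after the renewed normalization (-0.70, adjusted p = 0.0143).

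In the list of other heat response genes FES1A, a partner of HSP70, had 5.34, 5.61 and 5.88 at 48 h, 5.82, 5.57 and 5.79 at 6 h, and 6.88, 7.10 and 7.21 in control. Its log2 fold change was -1.33 at 6 h (SE 0.18, limma adjusted p = 1.13e-04) and -1.45 at 48 h (SE 0.18, adjusted p = 2.16e-04), with all treated arrays below all controls. DREB2C, a transcription factor of the heat and drought response, rose at 6 h by 1.02 (SE 0.20, adjusted p = 0.00184). At 48 h DREB2C had 0.58 (adjusted p = 0.0907), and 0.81 without control replicate 3 (adjusted p = 0.00955). BOB1, a small chaperone needed for thermotolerance, had -0.54 at 6 h (adjusted p = 0.152) and -0.45 at 48 h (adjusted p = 0.321), and its 6 h value was called without control replicate 3 (-0.78, adjusted p = 0.0337) and after centring (-0.89, adjusted p = 0.0197).

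**Figure D3:**
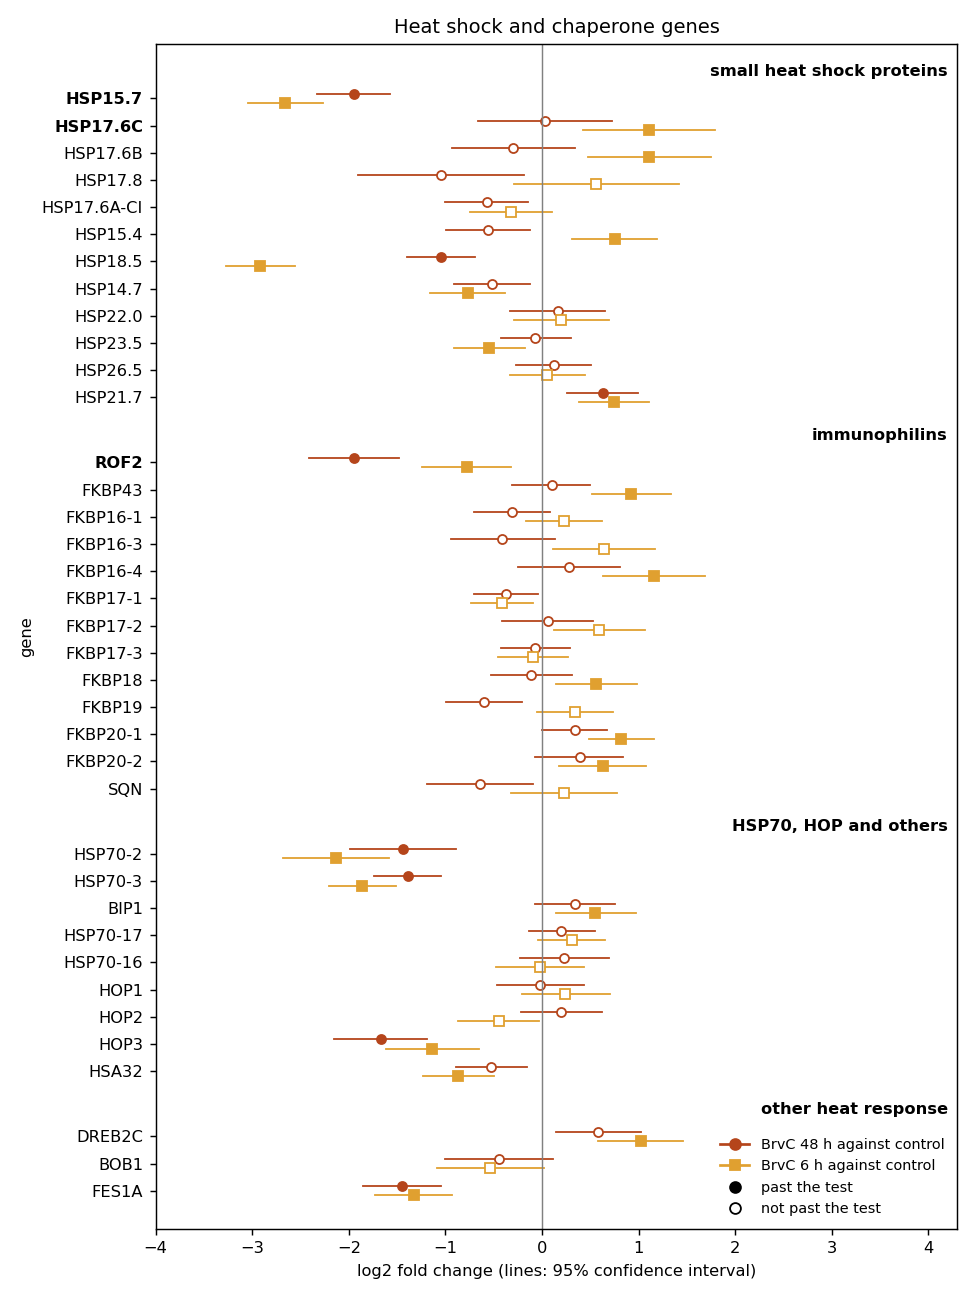
Log2 fold change against control of the 37 measured heat shock and chaperone genes at 48 h (circles) and 6 h (squares), with 95% confidence intervals; filled markers passed the test. HSP15.7, HSP18.5, HSP70-2, HSP70-3, HOP3, FES1A and ROF2 lie left of 0 at both times, and HSP17.6C, HSP17.6B and HSP15.4 lie right of 0 at 6 h, though their calls were lost after centring.

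HSP15.7 works in the peroxisome, and 3 of 30 peroxisome genes were measured. The isocitrate lyase ICL had 0.05 at 6 h against control (limma adjusted p = 0.912) and rose by 2.14 at 48 h (SE 0.26, adjusted p = 1.63e-04). The photorespiratory hydroxypyruvate reductase HPR fell, with -1.01 at 6 h (SE 0.18, adjusted p = 6.80e-04) and -2.40 at 48 h (SE 0.18, adjusted p = 2.89e-06). AIM1 of fatty acid breakdown had -0.23 at 6 h (adjusted p = 0.357, but -0.59 and 0.0201 after centring) and less than 0.01 in size at 48 h (adjusted p = 0.995). The measured peroxisome genes thus moved in different ways.

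Of 12 clock genes only GI was measured, and it moved between the groups. It had 9.26, 9.07 and 8.78 at 48 h, 7.70, 7.82 and 7.42 at 6 h, and 8.35, 7.89 and 7.69 in control, a rise at 48 h of 1.06 (SE 0.21, limma adjusted p = 0.005) and a value of -0.33 at 6 h (adjusted p = 0.282, but -0.69 and 0.025 after centring). The part of the time of day in the results for HSP15.7, HSP17.6C and ROF2 was not tested.

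The genes with the most similar values were looked up by Pearson's r over the 9 arrays among 398 genes with a symbol whose group means spanned at least 1 on the log2 scale. These coefficients describe likeness over arrays that form 3 groups, so they mostly reflect the group means. For HSP15.7 they were ELC (r = 0.990), a subunit of the endosomal sorting machinery, ECS1 (0.970), a cell wall protein, and DER1 (0.967), a protein of degradation at the endoplasmic reticulum. DER1 averaged 8.03 ± 0.05 at 48 h, 7.35 ± 0.13 at 6 h and 8.83 ± 0.11 in control (SD, n = 3 each), the same order as HSP15.7 over a smaller range.

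For HSP17.6C the most similar genes were the transcription factors bZIP23 (r = 0.897) and PIF7 (0.874) and the glucanase GH9C2 (0.863). bZIP23 averaged 2.97 ± 0.17 at 48 h, 4.01 ± 0.30 at 6 h and 2.88 ± 0.18 in control (SD, n = 3 each). For ROF2 they were the thylakoid ascorbate peroxidase TAPX (r = 0.955), HPR (0.934) and the expansin-like EXLA1 (0.912). TAPX averaged 6.98 ± 0.07 at 48 h, 8.01 ± 0.03 at 6 h and 9.11 ± 0.04 in control (SD, n = 3 each), a stepwise order like that of ROF2. EXLA1 differed from control at 48 h (-1.41, limma adjusted p = 1.71e-04) but had -0.10 at 6 h (adjusted p = 0.703), where ROF2 had -0.78.

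**Figure D4:**
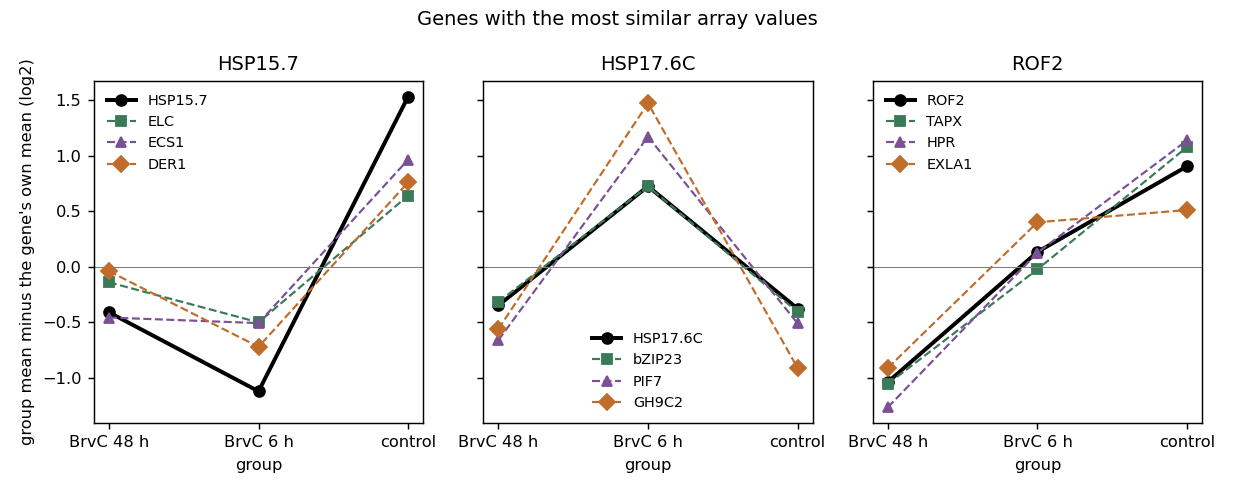
Group means of HSP15.7, HSP17.6C and ROF2 (black) and of the 3 genes most similar to each (dashed), each minus the gene's own mean over the groups, in log2 units, with BrvC 48 h, BrvC 6 h and control from left to right. The panels show a low point at 6 h for HSP15.7, a peak at 6 h for HSP17.6C and a stepwise order for ROF2.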

How the data were processed

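Leaf RNA was turned into amplified, biotin-tagged cDNA for the arrays, per the labels' protocols. The values used are log2 signals, 1 for each probe set of each array, as the authors deposited them. The programs listed by the submitters' processing notes are oligo, RMA and limma, with no version or role given. RMA usually corrects background and normalizes by quantiles before it summarizes probes, and it compresses differences of small signals. The deposited array medians over all entries differ by group, and rescaling on them shifts every fold change. Why they differ was not tested. No genome build is named by the labels or notes and no sequence table was used here, so no coordinates and no sequences are printed. Of 38408 entries, 16722 were listed with 1 gene, 759 with several (not used) and 20927 with none. The entry with the highest mean stood for a gene, which left 16550 genes, and each of the 3 members had 1 entry.

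The 9 arrays entered 1 linear model of group means, fitted by lmFit and eBayes of limma 3.58.1 under R 4.3.3, with 6 residual and 7.04 prior degrees of freedom, and the script was tested on simulated data. Tests are two-sided, p-values were adjusted by the Benjamini-Hochberg method across the 16550 genes, and a call needs an adjusted p under 0.05. The number of arrays limits the precision. The members and lists were chosen with earlier results of these data known, so list counts stand as descriptions. Named from each heat list were all measured genes where there were 5 or fewer, and otherwise the 5 with the smallest moderated F p over the groups (3 for peroxisome and clock genes), with the 3 genes most similar to each member. In the lists, locus names without a symbol in the RefSeq table of TAIR10.1 took the list's symbol.

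Deviations from group means correlated between arrays of the same replicate number at 0.302, 0.242 and 0.539 for 48 h and control. For 6 h and control the correlations were 0.034, -0.032 and 0.012, and for 48 h and 6 h 0.102, -0.051 and -0.012. Arrays of different numbers were not compared in this way, so these values do not settle whether any arrays are paired. Alternatives changed the entries used, low-value filter, scaling, variance model, array weights, samples, replicate block and threshold, or left out arrays.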

Additional observations from a re-analysis of the deposited data

Results flagged for a closer look

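The genes below differed between 48 h and 6 h of BrvC by limma's test of that difference with Benjamini-Hochberg adjustment at 0.05, so that their effects against the shared controls were not the same at the 2 times. Among the members the log2 difference, 48 h minus 6 h, was 0.71 for HSP15.7, -1.07 for HSP17.6C and -1.17 for ROF2. Of the other small heat shock proteins, HSP18.5 had 1.87, HSP15.4 -1.31 and HSP17.6B -1.41. Of the other immunophilins, FKBP43 had -0.83, FKBP19 -0.94, FKBP16-4 -0.88 and FKBP20-1 -0.49, and the co-chaperone HOP2 had 0.66. The call of HOP2 was lost without BrvC 6 h replicate 1 (0.62) or 2 (0.51) and without 48 h replicate 1 (0.64) or 2 (0.61). Those of HSP15.7, HSP17.6C, FKBP16-4 and FKBP20-1 were lost without single arrays too, and those of FKBP16-4 and FKBP20-1 also after both rescalings, as given above.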

How the results depend on the processing

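Of 183 values of the members under alternatives, 159 kept their direction and their side of the threshold. Some alternatives could not change a fold change: averaging entries for members with 1 entry, a stricter threshold, or leaving out an array of a group outside the comparison. The total is therefore no measure of robustness. At an adjusted p of 0.01 the calls of HSP17.6C (1.11) and ROF2 (-0.78) at 6 h, and of HSP15.7 (0.71) and HSP17.6C (-1.07) between the times, were lost. The heat shock and chaperone counts were then 13 at 6 h against control and 7 between the times. All genes called were 3081 at 6 h, 921 at 48 h and 2083 between the times. With every entry tested, all calls numbered 10484, 3824 and 6075 at 6 h, at 48 h and between the times. These are calls among 38408 entries, while the main fit called 4531, 1762 and 3356 of 16550 genes, so the counts have different bases. Of the calls 64.0%, 59.5% and 41.4% were higher, against 51.9%, 51.0% and 47.4% in the main fit. With every entry tested HSP17.6C was not called between the times (-1.07, adjusted p = 0.0778), and the heat shock count there was 9. Without low genes 24 heat shock and chaperone genes were tested, HSP15.7 and HSP17.6C not among them. Of these 24, 13 were called at 6 h, beside 3910 of all 8016 genes kept. Centring on array medians took HSP17.6C to 0.75 at 6 h and to -0.17 at 48 h. It gave 15 heat shock calls at 48 h beside 2210 calls of all genes, and 8308 calls of all genes at 6 h. After centring 17.3%, 23.1% and 66.0% of calls were higher in the same order of comparisons, and after quantile normalization run again 34.1%, 33.6% and 55.8%, with HSP17.6C between the times at -0.97 (adjusted p = 0.0508). Why these settings changed the calls was not tested. Leaving out arrays gave 0.69 to 1.34 for HSP17.6C and -0.96 to -0.65 for ROF2 at 6 h, -0.14 to 0.26 for HSP17.6C at 48 h (-0.14 without 48 h replicate 3, -0.06 without control replicate 1, -0.11 without control replicate 2), and 0.62 to 0.81 for HSP15.7 (0.66 without BrvC 6 h replicate 2 and 0.65 without BrvC 6 h replicate 3), -1.28 to -0.66 for HSP17.6C and 9 to 16 heat shock calls between the times. Calls of all genes between the times ran from 2470 to 3768 in these fits. Without replicate 3 of each group, chosen after the data were seen, ROF2 had -0.65 at 6 h and HSP15.7 0.62 between the times, neither called. The replicate number as a block changed no call of a member and no count by over 1.5 times: in the block over all arrays HSP17.6C at 6 h had 1.11 (SE 0.19, adjusted p = 6.62e-04), ROF2 -0.78 (0.0166) and HSP15.7 -2.66 (4.78e-07). The values have no measure of background, so no floor is known for any level.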

Other observations

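HSP17.8 (AT1G07400), a further class I small heat shock protein, was not among the genes named by rule and was picked after its values were seen. It had 5.96, 6.36 and 7.29 at 48 h, 7.95, 8.06 and 8.44 at 6 h, and 7.02, 7.12 and 8.62 in control. As for HSP17.6C, replicate 3 was the highest of each group. HSP17.8 was lower at 48 h than at 6 h by a log2 fold change of -1.62 (SE 0.40, limma adjusted p = 0.0104), while its differences from control were -1.05 at 48 h (adjusted p = 0.12) and 0.56 at 6 h (adjusted p = 0.333).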
